A study of Homo sapiens with 9 samples.

Results

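The peaks described here are regions of single-stranded DNA on the long arm of human chromosome 22 (22q), mapped by KAS-seq in HL-60 cells that had been induced to release neutrophil extracellular traps (NETs). Members were all peaks of the KAS list on chromosome 22 with a summit, the base of highest read pileup, above 17 Mb. In the counts below, 22q and the arm stand for this stretch above 17 Mb, a limit not matched to the start of the long arm. This gave 963 of the 34247 KAS peaks, and 963 of the 1189 on chromosome 22. The other 226 lay below that limit. Because membership was set by position alone within the called peaks, the number of peaks is a description of the list. The last 2 peaks left out had summits at 16877404 and 16959215, with fold enrichments of 4.95 and 5.18. The first 2 kept had summits at 17062911 and 17082965, with fold enrichments of 3.62 and 4.90. Fold enrichment is the ratio of the signal at a summit to the background that the authors' peak caller estimated.

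HL-60 is an established promyelocytic leukaemia line of human origin, widely used as a source of neutrophil-like cells after differentiation. There was 1 KAS library, made from differentiated cells after NET induction for 4 h, with 5 mM N3-kethoxal for 10 min. Its label refers to the induction without stating a dose. The 4 thrombin pulldown libraries came from differentiated cells given 500 nM phorbol myristate acetate (PMA) for 4 h and 1 µM biotinylated thrombin for 1 h, and 4 matching input libraries were not analysed here. All groups therefore shared the cell line and the induction of NETs, and uninduced cells were not analysed here. With 1 KAS library there is no replicate, so no KAS value below carries a test. The 95% intervals (exact Poisson for densities, exact Clopper-Pearson for shares) cover counting error only. Intervals of density ratios were derived from the Clopper-Pearson interval of a share of peaks. The interval of a median comes from ranked peaks treated as independent, and does not cover spread between libraries. Read depth is unknown, because the lists give no library totals, and the copy number of 22q in these cells was not tested. Of 28 genes for neutrophil granule and NET proteins across the genome, 10 (35.7%) held a KAS summit, with 3 each in BPI and ITGAM and 0 in MPO, ELANE and PADI4. Across all protein-coding genes the share was 35.6%. A KAS peak shows unpaired DNA and not RNA level, so this list does not check the cell type.

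N3-kethoxal reacts with guanines whose pairing face is free, and a biotin added to its azide allows the tagged DNA to be captured. In living cells KAS-seq is used to follow transcription, because RNA polymerase opens the helix as it moves. NETs are webs of decondensed chromatin and granule proteins that neutrophils expel. The 22q arm is short and rich in genes. It carries the immunoglobulin lambda light chain locus, the APOBEC3 cytidine deaminases, the APOL apolipoproteins, and the 22q11 region that is lost in DiGeorge syndrome.

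Few peaks touched the start of a gene, and the promoter windows they touched are described here. Base shares are of whole windows, of which a peak covered from 23 (SSTR3) to 300 (CARD10) bases, so they are not shares of KAS DNA alone. The RefSeq promoter table (GRCh38.p14) gives windows from 250 bases before to 50 bases after a listed start. It matched 303 of the 434 protein-coding genes of 22q. A window shared at least 1 base with a KAS peak in 8 of these 303 genes (2.64%), against 1.37% over all protein-coding genes with a window. The 8 genes were HIC2, BCR, SSTR3, CARD10, MPPED1, FBLN1, PIM3 and TTLL8. Of these windows, 4 are printed 5′ to 3′ on the gene's strand, with the bases under the peak in capitals. FBLN1 and PIM3 had the strongest peaks among these 8 windows, MPPED1 was among the genes with most peaks, and CARD10 had its whole window inside a peak.
FBLN1: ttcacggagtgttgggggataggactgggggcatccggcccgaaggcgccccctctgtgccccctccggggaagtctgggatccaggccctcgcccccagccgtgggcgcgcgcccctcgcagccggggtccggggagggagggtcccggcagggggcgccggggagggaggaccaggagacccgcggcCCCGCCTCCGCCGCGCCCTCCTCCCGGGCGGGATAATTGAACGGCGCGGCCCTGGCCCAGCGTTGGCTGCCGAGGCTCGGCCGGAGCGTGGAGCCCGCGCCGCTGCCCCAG
PIM3: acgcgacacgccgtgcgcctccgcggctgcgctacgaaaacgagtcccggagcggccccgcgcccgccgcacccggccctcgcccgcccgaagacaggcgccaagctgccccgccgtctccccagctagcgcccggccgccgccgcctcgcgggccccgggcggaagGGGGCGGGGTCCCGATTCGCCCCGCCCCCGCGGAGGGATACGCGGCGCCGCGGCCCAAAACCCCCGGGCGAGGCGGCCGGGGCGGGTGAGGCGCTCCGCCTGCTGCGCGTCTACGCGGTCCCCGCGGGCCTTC
MPPED1: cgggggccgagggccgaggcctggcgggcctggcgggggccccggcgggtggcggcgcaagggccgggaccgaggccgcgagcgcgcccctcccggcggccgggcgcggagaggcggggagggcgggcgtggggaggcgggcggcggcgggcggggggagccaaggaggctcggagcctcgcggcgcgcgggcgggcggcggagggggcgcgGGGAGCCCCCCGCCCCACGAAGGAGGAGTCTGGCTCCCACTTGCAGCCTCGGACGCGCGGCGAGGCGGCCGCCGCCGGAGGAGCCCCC
CARD10: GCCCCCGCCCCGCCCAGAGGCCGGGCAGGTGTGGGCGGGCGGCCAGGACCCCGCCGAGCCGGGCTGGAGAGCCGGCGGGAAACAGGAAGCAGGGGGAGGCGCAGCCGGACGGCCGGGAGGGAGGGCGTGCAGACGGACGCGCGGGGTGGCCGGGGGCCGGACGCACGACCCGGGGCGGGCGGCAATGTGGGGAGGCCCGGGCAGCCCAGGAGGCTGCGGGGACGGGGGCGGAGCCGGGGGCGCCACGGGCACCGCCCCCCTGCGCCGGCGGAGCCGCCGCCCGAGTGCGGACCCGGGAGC

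The FBLN1 window lies at chr22:45502633-45502932 on the plus strand. FBLN1 encodes fibulin 1, an extracellular matrix protein. Its peak had a fold enrichment of 6.42 and a summit 32 bases after the start. The PIM3 window lies at chr22:49960522-49960821 on the plus strand, and its peak had a fold enrichment of 6.18 and a summit 35 bases after the start. PIM3 encodes a serine/threonine kinase of the PIM family. The MPPED1 window lies at chr22:43411764-43412063 on the plus strand, with 88 bases under a peak of fold enrichment 4.90. The CARD10 window lies at chr22:37519366-37519665 on the minus strand, and all 300 of its bases lay under a peak of fold enrichment 4.22. CARD10 encodes a scaffold protein of NF-κB signalling. Guanine made up 52.3% of the MPPED1 window, 49.7% of CARD10, 40.7% of FBLN1 and 36.3% of PIM3 as printed. In the windows with a peak that are not printed, it ran from 23% (SSTR3) to 37% (BCR) on the gene's strand.

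These windows were rich in G and C. The GC content of the 8 windows with a peak ran from 67.0% to 86.0% with a median of 79.7%, against a median of 66.0% over all 413 windows of 22q. Elsewhere the pattern was alike, with a median of 79.0% in all 235 windows with a peak, these 8 included, and 62.3% in all 22175 windows of the genome. The 5-base unit of the human satellite repeats, ATTCC, was searched on both strands, which is ATTCC or GGAAT as printed. It was in 0 of the 8 windows, in 26.4% of the 22q windows, in 32.5% of all windows and in 16.6% of all windows with a peak. This is a description of letters in short windows and says nothing about a factor.

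22q was the most densely peaked chromosome region after chromosome 19. It held 28.5 KAS peaks per Mb (26.7 to 30.3) over the 33.8 Mb from the limit to the last gene end, against 10.9 per Mb on all other chromosomes, a ratio of 2.62. Against the other autosomes alone, with 11.5 per Mb, the ratio was 2.47. Chromosome 19 held 40.4 per Mb, and chromosomes 20 and 17 followed 22q with 19.6 and 18.8. For 22q only the part above 17 Mb was counted, while each other chromosome was counted over its whole length. Counting only 1 Mb steps that hold a gene, the density elsewhere was again 10.9 per Mb. By protein-coding genes per Mb 22q ranked 3 of 24, with 12.8 against 24.8 on chromosome 19 and 14.0 on chromosome 17. By peaks per protein-coding gene, 2.22, it ranked 7 of 24.

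The peaks were not spread evenly along the arm. Of 34 steps of 1 Mb, the last being 0.800 Mb long, the emptiest held 7 peaks, the median was 28 and the fullest held 65. The 5 fullest steps together held 243 peaks, or 25.2%. All 34 steps were above the median of 6 peaks in the 2883 steps of other chromosomes that hold a gene, and 19 were above their 90th percentile of 26. Steps as full as the fullest of 22q were few elsewhere, 28 of 2883 or 0.971%, and the highest of them held 203 peaks.

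**Figure D1:**
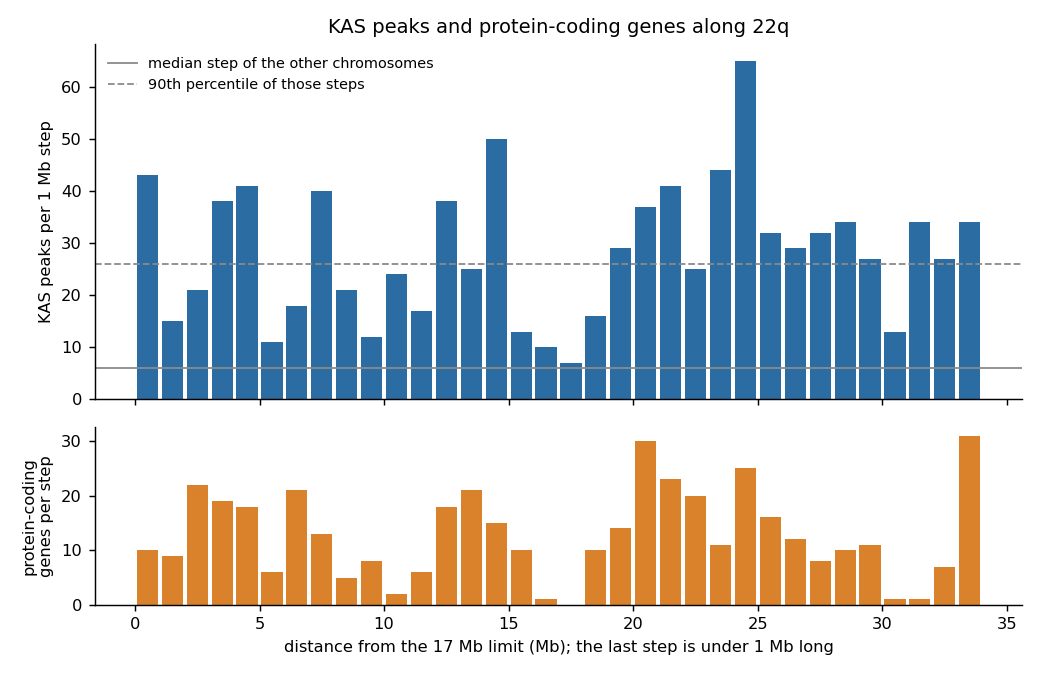
KAS peaks (top) and protein-coding genes (bottom) in 1 Mb steps along 22q, plotted against distance from the 17 Mb limit. Bars are counts from 1 library, and the lines mark the median (6) and 90th percentile (26) of steps on other chromosomes; the fullest step holds 65 peaks and 25 genes, while every bar lies above the median line.

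The fullest step, from 41 to 42 Mb, held 65 peaks and 25 protein-coding genes, 15 of which held a summit. MEI1, which acts in meiotic double-strand break formation, held 6. EP300, a histone acetyltransferase, and XRCC6, the Ku70 subunit of the DNA end-joining machinery, held 4 each. L3MBTL2 (a Polycomb-group protein) and ZC3H7B held 3 each. Only 35 of the 65 summits (53.8%) lay in a protein-coding gene. In the next fullest step, 31 to 32 Mb, with 50 peaks, 70.0% did, and DEPDC5 (8), SFI1 (7) and PISD (6) led it. The step from 40 to 41 Mb held 44 peaks, led by MRTFA with 12 and TNRC6B with 7, and the first step, from 17 to 18 Mb, held 43, led by CECR2 with 9 and BCL2L13 with 6. With steps shifted by 0.5 Mb, the fullest ran from 40.5 Mb and held 69.

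The emptiest step, from 34 to 35 Mb, held 7 peaks and 0 protein-coding genes. The second-longest run without a summit, 392 kb around the gene ISX, began in the emptiest step. The longest ran for 486 kb over TIMP3 and part of SYN3. Others of 384 kb (APOL5, APOL6 and part of RBFOX2), 361 kb (GGTLC3 and TMEM191B) and 301 kb inside the immunoglobulin lambda locus made up the 5 longest. Gene-poor did not always mean peak-poor. The step from 48 to 49 Mb held 34 peaks with 1 protein-coding gene, TAFA5, which held 11 of them.

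Peak number and gene number moved together only in part. Over the 33 full steps, Pearson's r between peaks and protein-coding genes was 0.54 and Spearman's rho 0.56, a description of neighbouring stretches of 1 library. Over 2860 full steps elsewhere they were 0.47 and 0.52. The 8 steps of 22q with 20 or more protein-coding genes held 34.1 peaks per Mb (30.1 to 38.5), against 26.8 per Mb in its other 26 steps. That ratio was 1.27 (1.10 to 1.47) on 22q and 3.20 (3.11 to 3.29) on the other chromosomes. Without the fullest step, a choice made after seeing the data, it was 1.10 (0.938 to 1.29), an interval that includes a ratio of 1. Counting as gene-dense the steps with 15 or more genes gave 1.53.

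Against all other chromosomes together, the higher density of 22q was seen in the steps with fewer genes and was small in the gene-dense ones. Steps with 0 to 4 protein-coding genes held 17.6 peaks per Mb on 22q (14.1 to 21.7; 5 steps) and 6.41 elsewhere. Steps with 5 to 9 genes held 19.3 (16.2 to 22.8) and 10.9. Steps with 10 to 19 genes held 33.9 (30.9 to 37.0) and 17.2. In steps with 20 or more, 34.1 on 22q stood beside 30.1 (29.3 to 30.8) elsewhere, and these intervals overlap. Chromosome 19 differed here, with 48.2 (46.1 to 50.4) in its gene-dense steps and 11.2 (8.46 to 14.5) in those with 0 to 4 genes. It supplied 41 of the 213 gene-dense steps elsewhere and 1957 of their 6387 peaks. This raises the 30.1, and a value without chromosome 19 was not computed. Chromosome 17 held 23.5 (21.6 to 25.6) in its gene-dense steps.

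**Figure D2:**
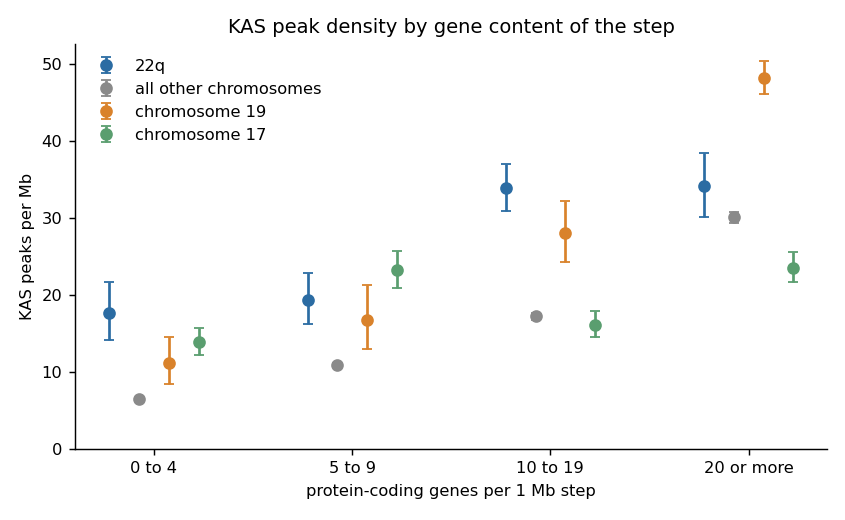
KAS peaks per Mb in 1 Mb steps grouped by number of protein-coding genes, for 22q, all other chromosomes, and chromosomes 19 and 17 (both are also part of the others). Points are densities and bars exact Poisson 95% intervals (counting error only); 22q lies above the other chromosomes in the first 3 classes and close to them in the last (34.1 and 30.1).

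The immunoglobulin lambda locus (IGL) had few peaks for this arm, at a density near that of the other chromosomes. IGL holds the variable (V), joining (J) and constant (C) segments from which B cells assemble the lambda light chain, a rearrangement that is a feature of B cells and not of myeloid cells. Over 22026076 to 22922913 of chromosome 22 it held 11 summits, where the mean density of 22q would give 25.6 summits. The density of IGL was 12.3 per Mb (6.12 to 21.9), against 10.9 per Mb on all other chromosomes. Steps of 22q from 26, 33 and 34 Mb were also low, with 12, 10 and 7 peaks. The stretch of equal length before it held 37 (41.3 per Mb, 29.0 to 56.9), and the one after it 15 (16.7 per Mb, 9.36 to 27.6), whose interval overlaps that of IGL. The 11 peaks were of ordinary strength, with fold enrichments of 3.93 to 6.74 and a median of 5.18. None of 70 annotated segments (56 V, 14 J or C) shared a base with a peak. These are the segments with a digit after the V, J or C of their name, pseudogenes included. By type, the 37 V segments and 36 V pseudogenes listed on 22q held 0 summits. The segments are short, so the density of the locus gives few overlaps with them. The nearest summit lay 734 bases from IGLV5-52. The 29.1 kb from the first J or C segment to the last held 0 peaks. That block is shorter than the mean gap between summits on 22q, 35.1 kb. The 301 kb run without a summit spanned 18 of the 70 segments and the genes PRAME, ZNF280A and ZNF280B. The 6 protein-coding genes inside IGL, among them VPREB1, a surrogate light chain gene, held 0 summits. These genes were 0.730 to 24.7 kb long. Of all protein-coding genes of 22q 48.4% held a summit, but of those under 10 kb only 6.90% did. The other antigen receptor loci ranged widely. The kappa light chain locus held 53 peaks (38.5 per Mb), against 10.1 per Mb on chromosome 2. The kappa locus lies at 88857361 to 90235368. The steps of chromosome 2 from 87, 88, 89, 90, 91 and 92 Mb held 36, 9, 51, 30, 48 and 43 peaks, so part of its surroundings was as full. Those from 91 and 92 Mb held 1 and 0 protein-coding genes. The heavy chain locus held 7 (5.41 per Mb) and the T cell receptor alpha locus 2 (2.15 per Mb), against 8.15 per Mb on chromosome 14. The beta locus held 0, against 13.9 per Mb on chromosome 7.

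**Figure D3:**
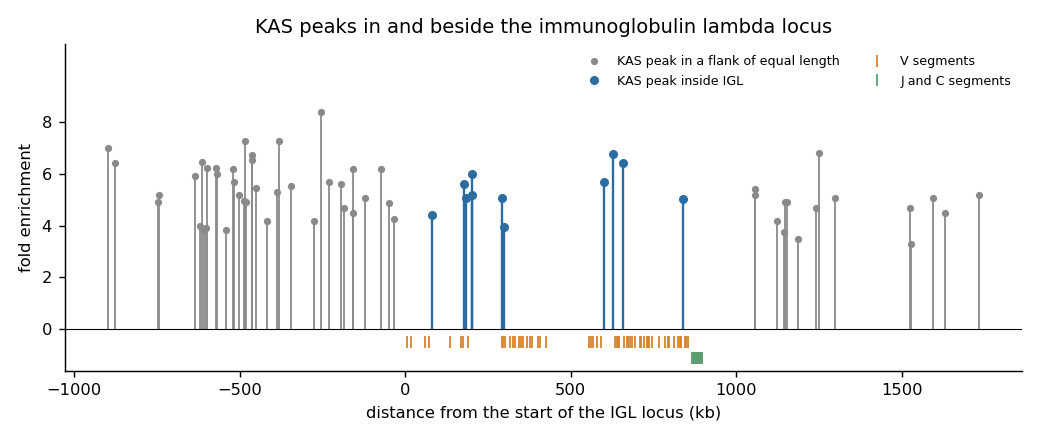
KAS peaks by distance from the start of IGL (kb) and fold enrichment, in the locus (blue) and in flanks of equal length (grey). Ticks under the axis are the V and the J and C segments counted in the text. The 11 peaks in IGL lie between the V segments, and none lies in the short J and C block.

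Peaks lay in protein-coding genes about as densely as in all other bases of the arm. Of the 963 summits, 541 (56.2%, 53.0 to 59.3) were in a protein-coding gene, and such genes cover 56.4% of 22q. The density was 28.4 per Mb in protein-coding bases and 28.6 per Mb in all others. On the other chromosomes, 45.0% of summits lay in protein-coding genes that cover 41.0% of bases, giving 11.96 and 10.14 per Mb. A further 95 summits (9.87%) lay only in other genes, the 11 in IGL among them because the table lists that locus as a gene. Such genes alone cover 14.7% of bases, which gives 19.1 summits per Mb (15.4 to 23.3). The remaining 327 (34.0%, 31.0 to 37.0) lay in no gene, in 28.9% of bases, or 33.5 per Mb (30.0 to 37.3). On the other chromosomes the same classes held 7.82 and 10.8 per Mb. Of 327 long noncoding RNA genes, 59 held a summit, and their share on other chromosomes was not computed. MIR3667HG, a microRNA host gene of 243 kb, held 10, and LINC01643 and LOC124900479 held 4 each. None of the 40 microRNA hairpins was overlapped by a peak or lay within 1 kb of one. Hairpins are short, so the density of 22q gives few such cases.

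More genes of 22q held a summit than genes elsewhere. At least 1 summit lay in 210 of 434 protein-coding genes (48.4%, 43.6 to 53.2), against 35.6% over all protein-coding genes and 35.3% over those elsewhere. Of the 210, 87 held 1, 91 held 2 to 4 and 32 held 5 or more, the last being 7.37% of genes against 3.35% elsewhere. Longer genes held more summits, with r = 0.67 and rho = 0.70 across the genes of 22q, which are not independent replicates. Genes of 22q were a little shorter, with a median length of 21.0 kb against 24.2 kb.

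The share of genes with a summit was above that of other chromosomes from 10 to 200 kb. It was alike under 10 kb, where few genes held one. Under 10 kb, 8 of 116 genes on 22q (6.90%, 3.02 to 13.1) and 6.65% of genes elsewhere held a summit. From 10 to 50 kb the shares were 49.5% (42.6 to 56.5) and 34.5%, and from 50 to 200 kb they were 89.4% (81.3 to 94.8) and 57.9%. All 14 genes of 200 kb or more on 22q held a summit (76.8 to 100), an interval that includes the 77.2% elsewhere. In summits per 100 kb of gene, these classes had 1.57, 3.69, 3.06 and 1.78 on 22q, and 1.61, 2.13, 1.36 and 0.720 elsewhere. The intervals on 22q were 0.720 to 2.99 in the shortest class (9 summits) and 1.43 to 2.19 in the longest.

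The genes with most summits came from many pathways. MRTFA, a coactivator of serum response factor that senses actin, led with 12 summits over 226 kb (5.30 per 100 kb), with fold enrichments of 4.17 to 6.61. PPP6R2, a regulatory subunit of protein phosphatase 6, held 11 (9.62 per 100 kb), of which 4 lay within 4.84 kb and reached a fold enrichment of 9.18. TAFA5, which encodes a secreted chemokine-like protein of brain, also held 11 and had the widest of them, 3029 bases. MPPED1, GRAMD4 and CECR2, the last a bromodomain protein of chromatin remodelling, held 9 each. DEPDC5 (a GATOR1 subunit that restrains mTORC1), KIAA1671 and TBC1D22A held 8 each. SFI1 (a centrin-binding protein of the centrosome), SCUBE1, TNRC6B (a scaffold of microRNA silencing), SYN3 (a synapsin) and TTC28 held 7 each. PISD, MEI1, BCL2L13, RSPH14 and CACNG2 held 6 each. Together the 20 genes with most summits held 160 summits, 16.6% of those on 22q, in 14.8% of its bases.

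**Figure D4:**
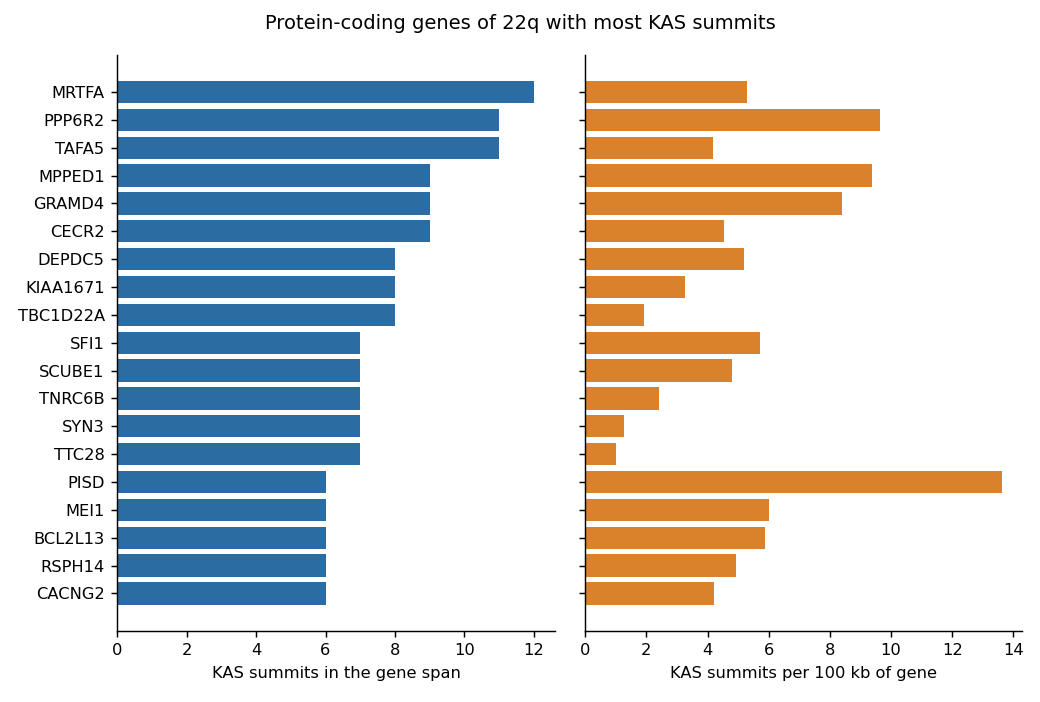
Protein-coding genes of 22q among the 20 with most KAS summits: number in the gene span (left) and number per 100 kb of gene (right), from 1 library. MRTFA has most summits (12), and PISD has the highest density among these genes (13.6 per 100 kb).

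Per unit of length the order was different. C22orf23, a gene of 10.6 kb, held 5 summits, 47.1 per 100 kb, all within 6.43 kb and with fold enrichments of 5.06 to 6.74. PISD, the mitochondrial phosphatidylserine decarboxylase, followed with 13.6 per 100 kb, then PPP6R2 (9.62), MPPED1 (9.39) and GRAMD4 (8.41). TRIOBP, an actin-bundling protein, held 6.29 per 100 kb and SHISAL1 5.68. Groups of 5 summits less than 5 kb apart from their neighbours occurred 3 times: in C22orf23, in MPPED1 over 8.73 kb, and at 41062856 to 41070805, a stretch of 7.95 kb that ended 21.8 kb before EP300 and lay over the pseudogene RPS9P2. Gaps between summits under 5 kb made up 19.3% on 22q and 18.8% elsewhere, while the median gap was 18.9 kb against 27.8 kb. Because 22q held more peaks per Mb, like shares do not mean like crowding, and crowding for a given density was not tested.

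Gene lists by function were read against 2 shares, 35.6% of all protein-coding genes and 48.4% of those on 22q. Among 29 genes of myeloid and cytokine signalling on 22q, 12 (41.4%, 23.5 to 61.1) held a summit. Their median length was 19 kb, and per 100 kb they held 3.17 summits against 2.85 for all genes of 22q. There were 4 in CRKL (an adaptor of tyrosine kinase signalling), 4 in BID (a BH3-only apoptosis protein) and 3 in ADA2. NCF4 and RAC2, parts of the neutrophil NADPH oxidase, held 1 each, and CSF2RB, MIF and OSM held 0. Among 29 genes of chromatin, transcription and RNA processing, 23 (79.3%, 60.3 to 92.0) held a summit. These were longer, with a median of 42.7 kb, and per 100 kb they held 2.91 summits against 2.85 for all genes of 22q. They included MRTFA and TNRC6B, named above, and EP300, THOC5 and XRCC6 with 4 each. SMARCB1, CBX6, CBX7 and ATF4 held 0. Translation and housekeeping genes held a summit in 13 of 22 (59.1%, 36.4 to 79.3), with 3.90 per 100 kb. RBX1, a subunit of cullin ubiquitin ligases, led them with 4. Genes best known from other tissues held a summit in 16 of 27 (59.3%, 38.8 to 77.6), with 2.29 per 100 kb. Among them were TAFA5 with 11, SYN3 and SCUBE1 with 7 each and CACNG2 with 6. CACNG2 encodes stargazin, an auxiliary protein of AMPA receptors. Of the 7 APOBEC3 genes, APOBEC3C and APOBEC3G held 1 each, and the 6 APOL genes held 0. In the 22q11 deletion region 16 of 37 genes (43.2%, 27.1 to 60.5) held a summit, with 2.88 per 100 kb. There were 6 summits in PI4KA (a phosphatidylinositol kinase) and 0 in TBX1, the transcription factor of heart and pharyngeal development.

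Peaks did not gather at gene starts. A summit lay within 1 kb of a listed start in 19 of 303 genes (6.27%, 3.82 to 9.62), against 4.10% over all genes with a listed start and 4.06% elsewhere. In the 1 kb before starts there were 1.94 summits per 100 starts and in the 1 kb after them 2.91, where the mean density of 22q gives 2.85. The strongest peaks within 1 kb of a start were at LOC105373071 (fold enrichment 8.40), at ESS2, a gene of the 22q11 region (7.77), at ZBED4 (7.002) and at GSC2, a goosecoid homeobox gene (6.73). Then came FBLN1 (6.42), PPM1F (6.18), PIM3 (6.18), TAFA5 (5.62), TTC28 (5.52) and TTLL8 (5.50). Along gene bodies, the first of 5 equal parts held 28.0% (23.7 to 32.5) of 415 summits in genes with a listed strand and the last part 14.5% (11.2 to 18.2). Elsewhere the same parts held 22.6% and 17.8%.

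**Figure D5:**
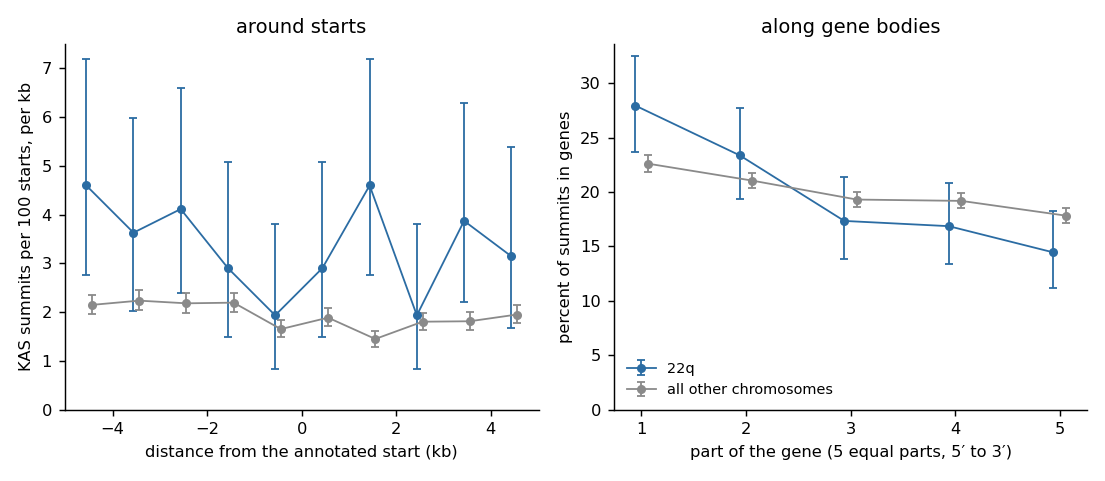
KAS summits per kb around annotated starts, per 100 starts (left), and the share of summits in each of 5 equal parts of the gene from 5′ to 3′ (right), on 22q and on all other chromosomes, with exact 95% intervals (counting error only). On 22q the bins beside the start (1.94 and 2.91) lie within the range of the other bins, and the share goes from 28.0% in the first part of the gene to 14.5% in the last.

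The peaks of 22q were about as strong as the rest. Their median fold enrichment was 5.31 (5.18 to 5.43), against 5.43 on other chromosomes, their median width 249 bases against 248, and their median pileup 9 reads against 10. Few were very strong: 2 of 963 (0.208%) reached the 99th percentile of the whole list, 11.5, while 7 of the 226 peaks below 17 Mb did. The strongest, at 18892412 to 18892664, had a fold enrichment of 18.6 and lay in the long noncoding RNA gene FAM230F, 13.7 kb from DGCR6. The next, at 41450326 to 41450581, had 11.9 and lay 3.63 kb from TOB2, an antiproliferative gene. Others followed in the long noncoding RNA EPIC1 (10.5), in UPK3A, a urothelial membrane protein gene (9.84), 15.3 kb from PRODH (9.39) and 2.88 kb from WNT7B (9.32). The rest of the 10 strongest lay 5.80 kb from TUBA8 (9.25), in MIATNB (9.25), in PPP6R2 (9.18) and in LOC284912 (9.02).

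Thrombin pulldown peaks were not found above 17 Mb of chromosome 22. The 4 pulldown lists held 886, 570, 790 and 882 peaks, with 54, 36, 35 and 48 on chromosome 22 (43.3 ± 9.29, SD, n = 4). All of these had summits at or below 16360718, so the number above 17 Mb was 0 in each list. With no pulldown peak there, no KAS peak above 17 Mb could share a base with one, so overlap was not measured in that stretch. Below the limit, 23 of the 226 KAS peaks of chromosome 22 shared a base with a pulldown peak. On all other chromosomes 703 of 33048 KAS peaks (2.13%) did. The labels do not say whether the pulldown replicates came from separate cultures, so their spread may be technical.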

How the data were processed

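KAS-seq and thrombin pulldown peak lists from HL-60 cells were used, 1 list per library, with groups taken from the labels. Per the submitters' processing notes the build was GRCh38.p13 and the tools included MACS2 2.2.7.1, BWA, bedtools 2.30.0, Picard 2.27.4 and SAMtools 1.6, with no roles or settings. Which control MACS2 was given is not stated in the sources used here. The authors' lists hold the peak, its summit, a pileup signal that is not normalized between libraries, −log10 p and q values, and a fold enrichment ratio. Peak numbers in the deposited KAS list begin at 1951, and lower ones were not analysed here.

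Peaks were assigned by summit. Genes came from the RefSeq table of GRCh38.p14 (59679 placed genes, 20037 protein-coding), with gene spans but no exons, and a summit in overlapping genes counts in each. Steps of 1 Mb began at 17 Mb, and genes were assigned to steps by midpoint. Starts and strands came from the promoter table. The genes named are the 20 with most summits, the 10 with most per 100 kb among those with at least 5, genes at the 10 strongest peaks and 10 strongest start peaks, and members of 8 lists of 168 genes. Leading genes of the fullest steps, genes beside long gaps, and the noncoding genes were named after their values were seen. Some genes that these rules select are not reported here. Members and lists were chosen with earlier results of these data known. Counting was tested on simulated data, which returned the planted count for 200 of 200 genes, and checked against bedtools 2.31.1. Python 3.11.15, NumPy 2.4.6, pandas 2.3.3, SciPy 1.17.1 and matplotlib 3.10.9 were used. Alternatives covered the lower limit, step placement, stronger peaks, merging within 1 kb, gene overlap, the gene-dense limit and leaving out each pulldown replicate.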

Additional observations from a re-analysis of the deposited data

How the results depend on the processing

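Of 29 values recomputed under alternatives, 22 stayed within the counting interval of the reported value or within 1.5 times a reported count, and 7 moved. Keeping only peaks with a fold enrichment at or above the median of the list gave 13.6 peaks per Mb on 22q, 34.3% of protein-coding genes with a summit, a median fold of 6.18, 29 peaks in the fullest step and 5.58 peaks per Mb in IGL. These follow from keeping fewer peaks. Merging peaks closer than 1 kb gave 26.7 peaks per Mb, and a gene-dense limit of 15 genes gave a ratio of 1.53. The count of 0 pulldown peaks could not change without a replicate or from 18 Mb, because each list held 0 above 17 Mb. Those pulldown values are among the 22 and say nothing about stability. No paired analysis was possible because the input libraries have no list used here and no value comes from a test. The limits are 1 KAS library, unknown depth, untested copy number and the absence of a genome sequence, so repeats and unknown bases were not examined.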
